A study of Mus musculus with 16 samples.

Results

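The whole gut tube of the mouse embryo at embryonic stage E8.75 was compared with the visceral endoderm that covered the embryo proper at stage E7.5. The comparison used 4 of the 16 RNA-seq libraries of the series, the 2 titled as bulk gut tube tissue and the 2 titled as emVE cells. It covered 17313 genes with enough counts, of 26761 gene symbols. The other 12 libraries held dissociated gut tube, 4 gut tube sections from anterior to posterior and extraembryonic visceral endoderm (exVE), with 2 libraries each.

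The bulk gut tubes came from embryos with 13 somites. According to the labels, heads and extraembryonic membranes were removed, the torso was treated briefly with pancreatin and trypsin on ice, and the gut tube was freed with needles. The protocol for single gut tube cells used embryos with 1 copy of the Afp-GFP transgene, whose label is driven by regulatory sequence of a visceral endoderm gene. Whether the bulk tissue came from such embryos, the strain, and the number of embryos per library are not stated in the labels. For E7.5 the protocol describes peeling off the endoderm layer and incubating it warm in Accutase and trypsin to obtain cells, a step that the bulk tissue is not described as having had. Stage, tissue and preparation therefore differ together between the 2 groups, and their parts in any difference cannot be told apart. Nothing says that the 2 libraries of a group are separate collections. The p-values therefore measure only the spread between libraries of a group, pooled over the 8 groups of the series.

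Visceral endoderm is the epithelium that surrounds the early embryo. It takes up maternal material through endocytic receptors and secretes lipoproteins, and its anterior part secretes antagonists of Nodal and Wnt that pattern the epiblast below. During gastrulation definitive endoderm from the primitive streak intercalates into it, and the mixed layer then folds into the gut tube, which is wrapped in mesoderm and acquires anterior to posterior identities marked by transcription factors and Hox genes.

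The 4 libraries held between 57061536 and 65231076 counts. Both bulk gut tube libraries ranked genes alike, with a Spearman correlation of 0.990 across genes, as did both emVE libraries at 0.992, but each pair differed far beyond sampling noise. Genes of the mitochondrial genome took 1.63% and 2.56% of the counts of the bulk gut tube libraries and 5.48% and 4.77% of those of the emVE libraries. The bulk gut tube libraries differed in several named genes. Xist, the RNA that silences an X chromosome in females, stood at 1.43 CPM, counts scaled to library size, in replicate 1 and 524 CPM in replicate 2, against 730 and 484 CPM in emVE. The Y-linked gene Uty stood at 22.3 and 11.6 CPM in bulk gut tube and at 16.5 and 13.2 CPM in emVE. Of 20 genes of the mature pancreas, picked after values were seen, the summed level was 204 and 203 CPM in bulk gut tube and 302 and 237 CPM in dissociated gut tube. In each of the 8 section libraries and the 4 visceral endoderm libraries that sum lay between 0.929 and 3.17 CPM. Ins1, which encodes insulin, had 36.4 and 35.5 CPM in bulk gut tube and no count in any section or visceral endoderm library, and Gcg, which encodes glucagon, had 34.2 CPM in both and likewise no count in those 12 libraries. Amy2a5 was at 0 in all 16 libraries. A search asked for at least 20 counts in each of the 4 whole gut tube libraries. It also asked for a sum over the 8 section libraries of at most 0.2 times the lowest of those counts. It returned 10 genes. The reverse search, which asked for at least 20 counts in each of the 8 section libraries, returned 0. The sections are parts of the tube, so that search could hardly return a gene, and its 0 is no contrast to the 10. The 10 are Ctrb1, Gcg, Iapp, Ins1, Ins2, Pcsk2, Prss2, Scg2, Slc30a8 and Try5. All 10 count as higher in bulk gut tube, and the source of their RNA was not tested.

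**Figure D1:**
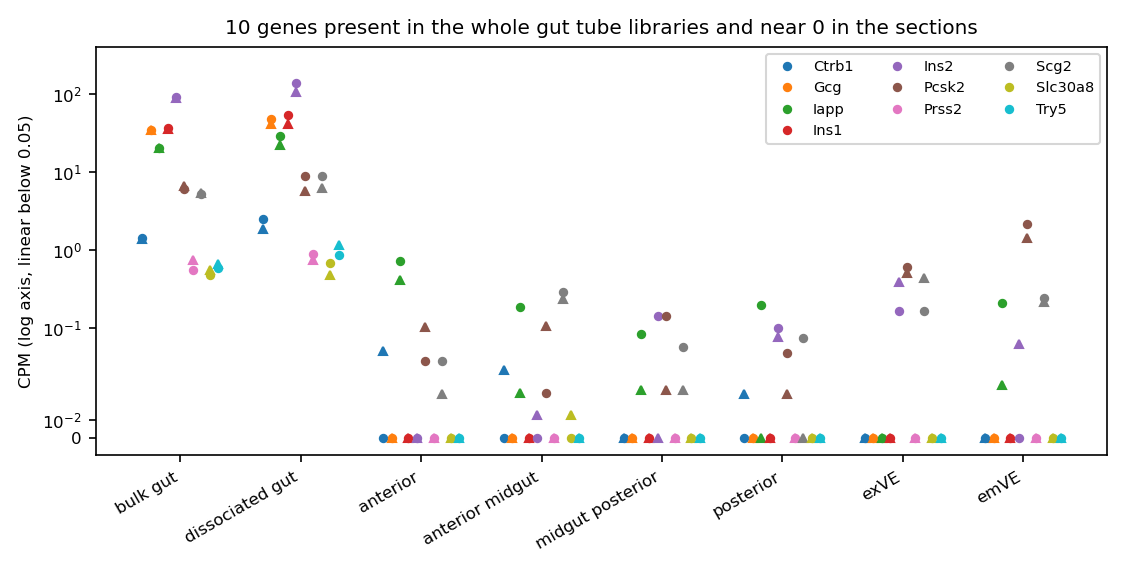
Level of the 10 genes in each library, in CPM on a log axis that is linear below 0.05; circles are replicate 1 and triangles replicate 2. The 4 whole gut tube libraries hold all 10 genes at similar levels in both replicates, and no section library reaches above 0.707 CPM. Pcsk2 is the exception in visceral endoderm, with 2.16 and 1.4 CPM in emVE against 5.93 and 6.63 CPM in bulk gut tube.

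Between bulk gut tube and emVE, 6688 genes passed an adjusted p of 0.05 in edgeR's quasi-likelihood test, 38.6% of those tested. Of these, 3763 genes were higher in bulk gut tube, 21.7% of genes tested, and 2925 were lower, 16.9% of genes tested. Changes beyond 1 on the log2 scale numbered 2126 upward and 1752 downward, and 781 and 574 genes passed beyond 3. Among the genes that were higher, 246 had no count in either emVE library, and 49 of those that were lower had none in bulk gut tube. The median log2 change of all genes tested was 0.08. Libraries of the 2 groups did not overlap in 74.0% of genes tested, so lack of overlap alone says little here. Without replicate 1 of the bulk gut tube 4242 genes passed. The shares given here are the background against which the gene lists below are to be read. They hold for the main fit only. Fits without 1 library called fewer genes in all, so fewer list members pass there too. More genes were called with these 2 groups fitted alone, with dissociated gut tube and with the mean of the gut tube sections. Lists share some genes, such as Otx2, Fgf5, T, Cubn and Apob.

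**Figure D2:**
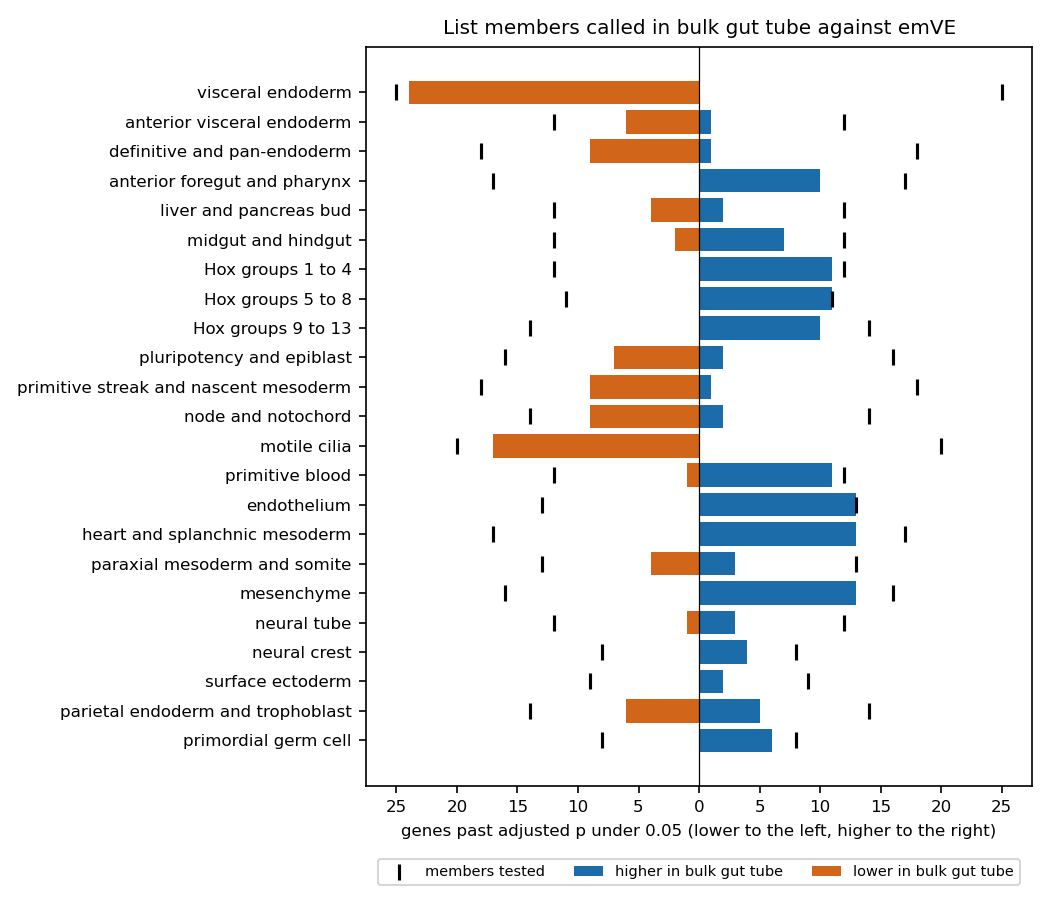
Members of 23 tissue and lineage lists past the threshold, with genes lower in bulk gut tube to the left and higher to the right; ticks on both sides mark the number of members tested. Visceral endoderm and motile cilia lie almost wholly to the left, and Hox, blood, endothelium and mesenchyme to the right.

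Visceral endoderm genes made up the most one-sided of the lower groups. Of 25 members, 24 were lower in bulk gut tube and 0 higher, with a median log2 change of -4.26 against 0.08 for all genes. Cubn, the receptor cubilin that takes up vitamin B12 and proteins, stood at 13.3 and 94.2 CPM in bulk gut tube and at 3284 and 3330 CPM in emVE. Both gut tube libraries lay far below both emVE libraries, and replicate 2 lay above replicate 1. The log2 change of Cubn was -5.94 (SE 1.54, adjusted p = 0.00989). Its partner Amn, amnionless, fell from 197 and 229 CPM to 3.16 and 11.5 CPM. Dab2, an endocytic adaptor, fell from 2372 and 2807 CPM to 92.1 and 153 CPM (log2 change -4.40, SE 0.69, adjusted p = 0.000502). Replicate 2 of the bulk gut tube was the higher of the pair for all 3 genes, without reaching emVE.

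Genes of lipoprotein assembly were lower as well. Apob, the structural protein of large lipoproteins, stood at 52.9 and 266 CPM in bulk gut tube and 5385 and 5116 CPM in emVE (log2 change -5.04, SE 1.30, adjusted p = 0.00951). Mttp, which loads lipid onto that protein, stood at 29.7 and 47.3 CPM against 543 and 572 CPM (log2 change -3.86, SE 0.45, adjusted p = 8.46e-05). Apoe fell by 4.26 on the log2 scale (SE 0.73, adjusted p = 0.000912). Apoa4 fell from 420 and 415 CPM to 2.02 and 12.2 CPM. Ttr, the thyroxine carrier transthyretin, stood at 67.9 and 122 CPM against 813 and 987 CPM, and its log2 change of -3.24 had an adjusted p of 0.0195. Afp, which encodes alpha-fetoprotein, was the member that did not pass. It stood at 111 and 218 CPM in bulk gut tube and 667 and 851 CPM in emVE, groups that do not overlap, with a log2 change of -2.21 (SE 0.92, adjusted p = 0.0778).

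The summed level of the 25 genes was 812 and 1632 CPM in bulk gut tube, 21936 and 23959 CPM in emVE, and 55897 and 60555 CPM in exVE. Bulk gut tube holds endoderm, mesoderm and blood together, so fewer cells of a type and less RNA per cell cannot be told apart in these sums. Along the gut tube 24 of the 25 members had their highest mean in 1 of the 2 middle sections, whose order the replicates do not settle. Cubn stood at 707 and 236 CPM in the anterior midgut and 464 and 323 CPM in the midgut to posterior section, ranges that overlap. It stood at 3.64 and 2.96 CPM in the anterior and 2.47 and 131 CPM in the posterior section. The summed level of the list was 9374 and 3339 CPM in the anterior midgut and 7297 and 4710 CPM in the midgut to posterior section. Without bulk gut tube replicate 1, 11 of the 25 members passed as lower, and with dissociated in place of bulk gut tube 14 did, where 20.7% of all genes were lower. Cubn, Amn and Ttr lost their calls without bulk gut tube replicate 1, at log2 changes of -5.13, -4.20 and -2.88. The call of Ttr was also lost without bulk gut tube replicate 2, at -3.72, and without emVE replicate 2, at -3.09.

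Upstream sequence of members that fell is shown to give the bases beside the genes. The promoter table of RefSeq (GRCm38.p6), with 250 bases before and 50 after each listed start, held 27 promoters of 20 of the 25 genes. Capitals mark matches on either strand to short motifs of factors known from endoderm and gastrulation. The first shown are Apoa2 and Fgb, fibrinogen beta. Apoa2 fell from 57.6 and 52.4 CPM to 1.05 and 3.07 CPM. Its promoter, at chr1:171224804-171225103 on the plus strand, holds the letters of a TATA box (TATAAA) 212 bases before the start. It also holds a FOXA core (TGTTTAC). Fgb fell from 94.8 and 79.1 CPM to 5.97 and 13.8 CPM. Its promoter, at chr3:83049814-83050113 on the minus strand, holds an HNF1 core (GTTAAT, on the opposite strand).
Apoa2: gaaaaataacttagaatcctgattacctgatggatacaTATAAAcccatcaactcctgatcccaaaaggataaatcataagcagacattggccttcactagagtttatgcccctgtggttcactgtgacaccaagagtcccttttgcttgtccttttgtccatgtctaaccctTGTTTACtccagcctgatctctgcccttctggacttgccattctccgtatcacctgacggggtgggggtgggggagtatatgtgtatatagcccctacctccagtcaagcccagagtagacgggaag
Fgb: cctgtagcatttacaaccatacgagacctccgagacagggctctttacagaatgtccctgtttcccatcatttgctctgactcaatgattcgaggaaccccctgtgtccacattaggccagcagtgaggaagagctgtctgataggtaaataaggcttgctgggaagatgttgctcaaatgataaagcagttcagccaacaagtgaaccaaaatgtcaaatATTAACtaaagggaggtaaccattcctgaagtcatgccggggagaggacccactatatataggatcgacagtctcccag
Among the 27 promoters, 6 (22.2%) held the HNF1 core, against 7.1% of all 32851 promoters in the table. The TATA box stood in 7 (25.9%) against 13.6%, and the FOXA core in 3 (11.1%) against 3.65%. The TCF/LEF core (ATCAAAG) stood in 2 (7.41%) against 3.73%. Other motifs searched stood below the share of all promoters. The GATA core (AGATAA) was found in 1 (3.7%) against 11.2%, the CDX core (CAATAAA) in 1 (3.7%) against 4.6% and the T-box core (AGGTGTG) in 0 against 5.84%. Matches here and below were counted on either strand and at any position, so TATAAA letters need not be a working TATA box. A match is a run of letters and not a bound site.

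Genes of the anterior visceral endoderm were divided. Of 12 members, 6 were lower and 1 higher, with a median log2 change of -2.01. Cer1, a secreted antagonist of Nodal, had the largest fitted fall of any named gene. It stood at 317 and 251 CPM in emVE, at 0 and 0.215 CPM in bulk gut tube and at 11.2 and 1.05 CPM in exVE (log2 change -11.30, SE 1.36, adjusted p = 9.95e-05). The Wnt antagonist Dkk1 fell from 84.3 and 72.1 CPM to 9.98 and 14.2 CPM, and the Wnt receptor gene Fzd5 fell from 127 and 90.1 CPM to 10.6 and 14.4 CPM. Fgf5 fell by 3.28 on the log2 scale (adjusted p = 0.000357). Sfrp5, another secreted Wnt antagonist, was the member that rose, from 4.59 and 6.79 CPM to 28.9 and 22.6 CPM (adjusted p = 0.0495), a call lost in each of the 4 fits without 1 library. Hhex, a homeobox gene of this region and of the liver bud, was lower at 14.4 and 13.0 CPM against 24.97 and 25.6 CPM (log2 change -0.88, adjusted p = 0.0416). That call was lost in each fit without 1 library, with adjusted p between 0.115 and 0.167. Otx2 stood at 19.2 and 14.5 CPM against 98.0 and 76.5 CPM and did not pass (adjusted p = 0.0996).

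Of 18 members of the definitive and pan-endoderm list, 9 were lower, 1 was higher and the median log2 change was -1.38. Foxa1, a pioneer factor, stood at 77.3 and 109 CPM in bulk gut tube and 103 and 111 CPM in emVE (log2 change -0.20, SE 0.32, adjusted p = 0.656). The epithelial adhesion gene Epcam stood at 192 and 194 CPM against 286 and 268 CPM (adjusted p = 0.298). Cdh1, E-cadherin, fell from 935 and 869 CPM to 218 and 241 CPM (log2 change -1.97, SE 0.29, adjusted p = 0.000382). The nuclear receptor gene Hnf4a fell from 261 and 289 CPM to 11.5 and 17.1 CPM. Sox17 fell by 2.44 on the log2 scale (SE 0.27, adjusted p = 6.5e-05). Trh, which encodes thyrotropin releasing hormone, fell from 730 and 815 CPM to 3.63 and 6.06 CPM, and stood at 46.0 and 15.5 CPM in exVE. Pyy, a gut hormone gene, was the one that rose, from 0.137 and 0.213 CPM to 10.1 and 11.1 CPM (log2 change 5.89, SE 0.80, adjusted p = 0.000301). With these 2 groups fitted alone, 14 of the 18 were lower.

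**Figure D3:**
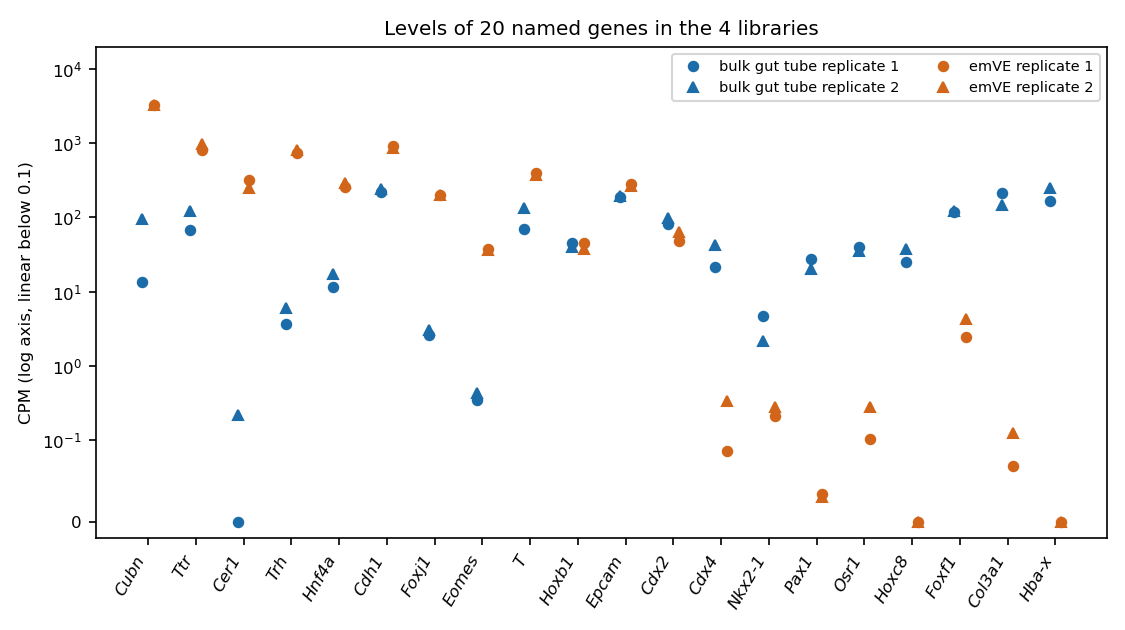
Level of 20 named genes in the 4 libraries, in CPM on a log axis that is linear below 0.1. Blue points are bulk gut tube and orange points emVE, with circles for replicate 1 and triangles for replicate 2; Cubn runs from 13.3 to 3330 CPM and Hoxb1 lies at about the same level in all 4.

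Most genes of motile cilia were lower in bulk gut tube than in emVE. Of 20 motile cilia members tested 17 were lower in bulk gut tube and 0 higher, with a median log2 change of -4.18. Foxj1, the transcription factor that drives the motile cilium program, stood at 203 and 201 CPM in emVE and 2.62 and 2.98 CPM in bulk gut tube (log2 change -6.17, SE 0.47, adjusted p = 8.64e-06). In exVE it stood at 9.40 and 6.34 CPM. The dynein heavy chain gene Dnah11 fell from 23.6 and 21.5 CPM to 0.739 and 1.61 CPM, and the dynein heavy chain gene Dnah5 fell from 22.2 and 15.1 CPM to 0.770 and 0.660 CPM. Cfap126 fell by 5.94 on the log2 scale (SE 0.53, adjusted p = 1.99e-05). Genes with parts in cilia were also among the 10 largest falls of genes with at least 8 CPM in emVE whose libraries did not overlap. One of them was Rsph4a, a radial spoke gene, which fell from 28.2 and 20.7 CPM to 0.0924 and 0.287 CPM. Another was Drc7, a dynein regulatory gene, which fell from 12.6 and 11.4 CPM to 0.0308 and 0.0574 CPM. Rfx2 and Rfx3, regulators of ciliary genes, did not pass. The summed level of the list was 566 and 500 CPM in emVE, 84.3 and 85.2 CPM in bulk gut tube and 29.1 and 25.3 CPM in exVE.

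Of 14 node and notochord genes 9 were lower and 2 higher, with a median log2 change of -1.96. T, brachyury, stood at 393 and 380 CPM in emVE and at 70.6 and 136 CPM in bulk gut tube (log2 change -1.90, SE 0.45, adjusted p = 0.0057). Within the gut tube its mean was 339 CPM in the posterior section and at most 50.4 CPM in the others. Chrd, the BMP antagonist chordin, fell by 2.24 on the log2 scale (adjusted p = 0.00532), and Pkd1l1, a sensor of flow in the node, fell by 2.01 (adjusted p = 0.0052). Noto, a homeobox gene of the node, stood at 10.9 and 21.3 CPM against 42.0 and 41.7 CPM and did not pass (adjusted p = 0.289). Shh, a ligand made by notochord and gut endoderm, rose from 18.7 and 24.1 CPM to 54.7 and 79.1 CPM, and Cdx4 was the other member that rose. The call of Shh was lost without bulk gut tube replicate 2 (adjusted p = 0.0727) and without emVE replicate 1 (adjusted p = 0.0905). Without bulk gut tube replicate 1, 4 of the 14 were lower, and T had an adjusted p of 0.0627. Node and ciliary transcripts stood beside visceral endoderm ones in the emVE libraries, and their cell of origin was not tested.

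Of 18 primitive streak genes 9 were lower, 1 was higher and 8 did not pass, with a median log2 change of -2.02. With the mean of the gut tube sections 15 were lower, in a fit where 4358 of all genes tested were lower, against 2925 in the main fit. Eomes, a T-box gene needed for endoderm formation, stood at 37.7 and 36.7 CPM in emVE and 0.339 and 0.430 CPM in bulk gut tube (log2 change -6.59, SE 0.43, adjusted p = 5.51e-06). It also stood at 40.9 and 50.4 CPM in exVE. Wnt8a had 11.2 and 7.37 CPM in emVE and 2 counts in all over both bulk gut tube libraries. Nodal fell by 3.34 on the log2 scale (SE 0.40, adjusted p = 9.41e-05), and its antagonist Lefty2 fell by 4.77 (SE 0.66, adjusted p = 0.000251). Fgf8 was the member that rose, from 4.68 and 4.45 CPM to 32.2 and 29.5 CPM. Mesp1, a factor of nascent mesoderm, fell from 3.33 and 4.78 CPM to 0.0308 and 0.0574 CPM. Its promoter, at chr7:79793541-79793840 on the minus strand, is shown because it holds a TCF/LEF core (ATCAAAG) and a T-box core (AGGTGTG), both on the opposite strand.
Mesp1: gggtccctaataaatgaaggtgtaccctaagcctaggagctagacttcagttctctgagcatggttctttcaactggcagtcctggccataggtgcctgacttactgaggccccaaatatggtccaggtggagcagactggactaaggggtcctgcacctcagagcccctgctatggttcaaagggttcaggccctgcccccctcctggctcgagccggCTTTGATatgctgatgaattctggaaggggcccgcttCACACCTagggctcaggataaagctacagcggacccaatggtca
The T-box core stood in 4 of the 14 promoters found for this list (28.6%), against 5.84% of all promoters, in Evx1, Mesp1, Mesp2 and Nodal. Evx1 did not pass the test. The TCF/LEF core stood in 3 (21.4%) against 3.73%, the TATA box in 2 and the HNF1, GATA and CDX cores in 1 each, and the FOXA core in 0.

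Of 16 pluripotency and epiblast genes 7 were lower and 2 higher. Pou5f1, which encodes OCT4, stood at 101 and 58.6 CPM in emVE and 7.38 and 16.8 CPM in bulk gut tube (log2 change -2.72, adjusted p = 0.0116). That call was lost without bulk gut tube replicate 1 (adjusted p = 0.102) and without emVE replicate 1 (adjusted p = 0.0685). The DNA methyltransferase gene Dnmt3b fell from 528 and 394 CPM to 94.8 and 97.3 CPM (log2 change -2.26, SE 0.14, adjusted p = 5.19e-06). Sox2, which also marks foregut, rose from 6.75 and 3.11 CPM to 41.3 and 41.5 CPM. In 3 fits the number of lower members moved by more than 1.5 times, to 4 without either of those libraries and to 11 with the mean of the gut tube sections.

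Of 17 foregut and pharyngeal genes 10 were higher in bulk gut tube and 0 lower, with a median log2 change of 3.07, and all 17 had their highest mean in the anterior section. Pax1, a marker of the pharyngeal pouches, stood at 27.7 and 20.2 CPM in bulk gut tube and 0.0343 and 0.0304 CPM in emVE (log2 change 9.46, SE 1.28, adjusted p = 0.000288). Its section means ran from 77.0 CPM in the anterior to 0.0183 CPM in the posterior section. Nkx2-6 rose from 0.617 and 0.457 CPM to 38.1 and 29.2 CPM, and Pax8, a thyroid gene, rose from 0.343 and 0.0913 CPM to 12.6 and 10.2 CPM. Nkx2-1, the factor of the lung and thyroid buds, stood at 4.70 and 2.15 CPM against 0.206 and 0.274 CPM (adjusted p = 0.0253). Its adjusted p lay between 0.111 and 0.133 without bulk gut tube replicate 1 or without either emVE library. Pax9, Isl1, Eya1, Irx1, Irx3 and Otx2 were among those that did not pass.

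Of 12 genes of the liver and pancreas buds 2 were higher and 4 lower. Pdx1, the factor of the pancreatic bud, stood at 1.60 and 0.990 CPM in bulk gut tube and 2.61 and 3.23 CPM in emVE (adjusted p = 0.109). Alb, the liver gene for albumin, stood between 0.0343 and 0.122 CPM in the 4 libraries. Nr5a2 rose by 3.68 on the log2 scale (SE 0.38, adjusted p = 4.15e-05), and 1 of the 12 was higher without emVE replicate 1.

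In the midgut and hindgut list 7 of 12 members were higher and 2 lower, with a median log2 change of 1.24. Cdx4, a caudal homeobox gene, stood at 21.3 and 42.4 CPM in bulk gut tube and 0.0857 and 0.335 CPM in emVE (log2 change 7.20, SE 0.84, adjusted p = 0.000124). Its mean was 187 CPM in the posterior section and 0.257 CPM in the anterior one. The related genes differed from it. Cdx2 stood at 81.5 and 98.1 CPM against 47.4 and 63.8 CPM (log2 change 0.69, adjusted p = 0.0283), a call lost without bulk gut tube replicate 2 (adjusted p = 0.154) or emVE replicate 1 (adjusted p = 0.203). Cdx1 was lower in bulk gut tube, at 5.50 and 7.99 CPM against 23.2 and 29.0 CPM (log2 change -1.95, SE 0.38, adjusted p = 0.00185). Osr1, an odd-skipped gene, rose from 0.103 and 0.274 CPM to 39.4 and 35.1 CPM.

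Of 37 Hox genes tested 32 were higher in bulk gut tube and 0 were lower. Hox genes stand in clusters, and their order there follows the order of their domains along the body. In groups 1 to 4, 11 of 12 were higher with a median log2 change of 3.57, in groups 5 to 8 all 11 were higher with 6.92, and in groups 9 to 13 10 of 14 were higher with 5.81. With genes at 0 in emVE set to their lower bound, the last 2 medians were 6.32 and 5.34. Hoxb1 was the one of groups 1 to 4 that did not pass, at 44.8 and 39.3 CPM in bulk gut tube and 45.6 and 37.8 CPM in emVE (log2 change 0.01, SE 0.29, adjusted p = 0.98). Hoxc8 stood at 25.4 and 37.5 CPM against no count in emVE, at least 1300-fold higher than the floor of 3 counts over the group. Hoxc6 stood at 17.2 and 19.4 CPM, at least 755-fold higher, and Hoxc9 at 8.44 and 11.03 CPM, at least 403-fold higher. Hoxa9 stood at 28.3 and 40.6 CPM against 0 and 0.0304 CPM.

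The 5 Hox genes that did not pass were Hoxb1, Hoxc11, Hoxa13, Hoxb13 and Hoxc13, of which the last 4 stood at or below 1 CPM in the 4 libraries. Hoxd13 did rise, from 0.377 and 0.335 CPM to 3.37 and 7.61 CPM. All 14 members of groups 9 to 13 had their highest mean in the posterior section. In emVE 7 Hox genes averaged above 1 CPM, among them Hoxa3, Hoxa7, Hoxb1, Hoxb2, Hoxb3 and Hoxb4, against 32 in bulk gut tube. With the mean of the 4 sections on the log2 scale in place of bulk gut tube, 6 of the 14 members of groups 9 to 13 were higher. The promoter of Hoxb8, which stood at 32.1 and 34.1 CPM against 0.103 and 0.183 CPM (log2 change 7.82, SE 0.84, adjusted p = 5.23e-05), is shown at chr11:96281655-96281954 on the plus strand. It holds a CDX core (CAATAAA) between 2 TATAAA matches, all on the opposite strand.
Hoxb8: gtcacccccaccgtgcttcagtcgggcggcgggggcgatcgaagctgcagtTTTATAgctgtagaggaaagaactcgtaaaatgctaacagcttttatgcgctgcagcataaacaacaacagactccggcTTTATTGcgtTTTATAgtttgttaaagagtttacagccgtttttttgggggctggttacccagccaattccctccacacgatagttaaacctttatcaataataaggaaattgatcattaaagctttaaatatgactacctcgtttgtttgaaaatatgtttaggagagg
The CDX core stood in 2 of 24 promoters of 22 Hox genes (8.33%), against 4.6% of all promoters. The TATA box stood in 4, the HNF1 core in 3, the T-box and TCF/LEF cores in 1 each, and the FOXA and GATA cores in 0.

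**Figure D4:**
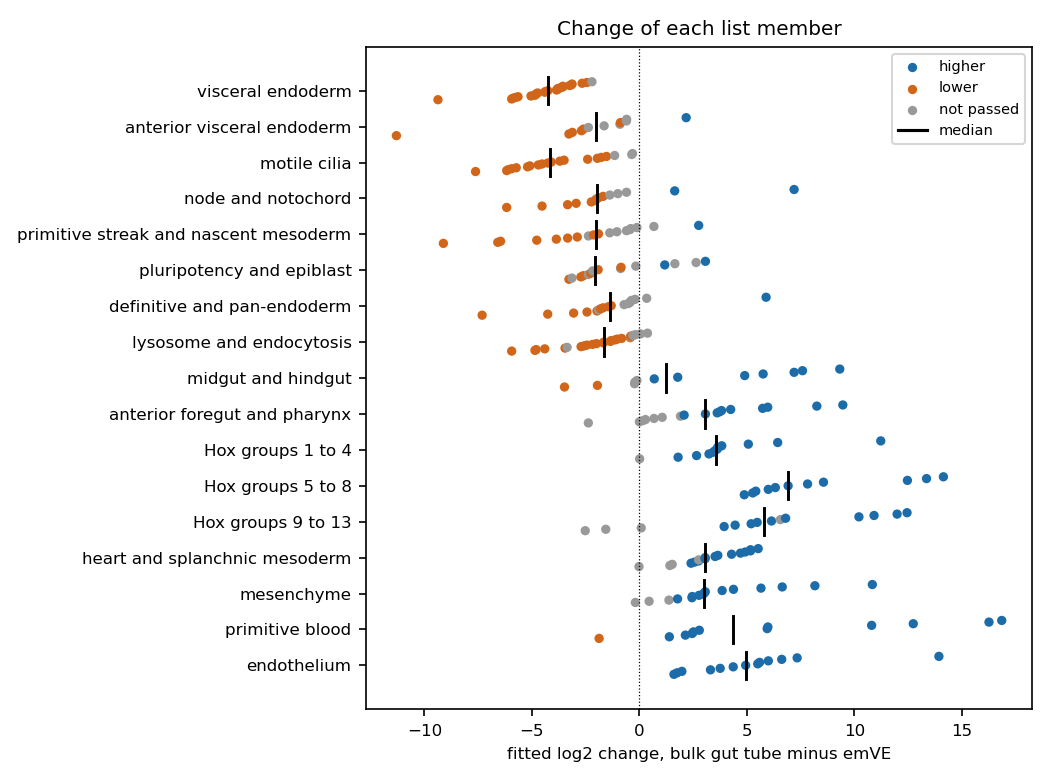
Fitted log2 change of each tested member of 17 lists, bulk gut tube minus emVE, with a bar at the median. Blue members were higher, orange lower and grey did not pass; visceral endoderm lies at a median of -4.26 and Hox groups 5 to 8 at 6.92, and fitted values beyond about 10 are mostly genes at 0 in 1 group.

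Mesodermal tissues accompany the gut tube. All 13 endothelial genes were higher, with a median log2 change of 4.94. Cdh5, the cadherin of blood vessels, stood at 90.4 and 97.3 CPM in bulk gut tube and 0.651 and 2.25 CPM in emVE (log2 change 6.00, SE 0.75, adjusted p = 0.00013). Emcn, endomucin, stood at 28.3 and 26.2 CPM against no count in emVE, at least 1126-fold higher. Of 12 primitive blood genes tested 11 were higher and 1 was lower, with a median log2 change of 4.37. Hba-x, an embryonic globin gene, stood at 166 and 247 CPM against 0 and 0, at least 8535-fold higher, and the embryonic globin gene Hbb-y at 104 and 169 CPM, at least 5658-fold higher. Gata1, a blood factor, was the member that was lower, at 0.970 and 2.32 CPM against 7.49 and 4.61 CPM (adjusted p = 0.0275), a call lost without bulk gut tube replicate 1 or emVE replicate 1.

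Mesenchymal genes rose in 13 of 16 cases and fell in 0, with a median log2 change of 3.00. Col3a1, a fibrillar collagen gene, stood at 213 and 146 CPM against 0.0686 and 0.122 CPM (log2 change 10.84, SE 1.48, adjusted p = 0.000224). Vim, vimentin, rose from 67.7 and 73.0 CPM to 414 and 352 CPM. In the heart and splanchnic mesoderm list 13 of 17 were higher and 0 lower, with a median log2 change of 3.06. Foxf1, a forkhead gene of the mesoderm around the gut, rose from 2.43 and 4.23 CPM to 120 and 121 CPM (log2 change 5.17, SE 0.78, adjusted p = 0.000423). Bmp4 rose from 4.80 and 3.43 CPM to 52.3 and 50.8 CPM. Genes of the beating heart differed between both gut tube libraries. Actc1, cardiac actin, stood at 91.6 CPM in replicate 1 and 14.97 CPM in replicate 2, against 2.71 and 2.74 CPM in emVE. Myl7, a light chain of atrial myosin, stood at 69.1 and 18.0 CPM against 7.95 and 8.49 CPM. Its adjusted p of 0.0394 became 0.0552 with the replicate number as a block. Its call was also lost without bulk gut tube replicate 1, at a log2 change of 1.13. The same held without emVE replicate 1, at 2.36, and without emVE replicate 2, at 2.46. Both genes were higher in the anterior midgut section than in the other 6 section libraries.

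**Figure D5:**
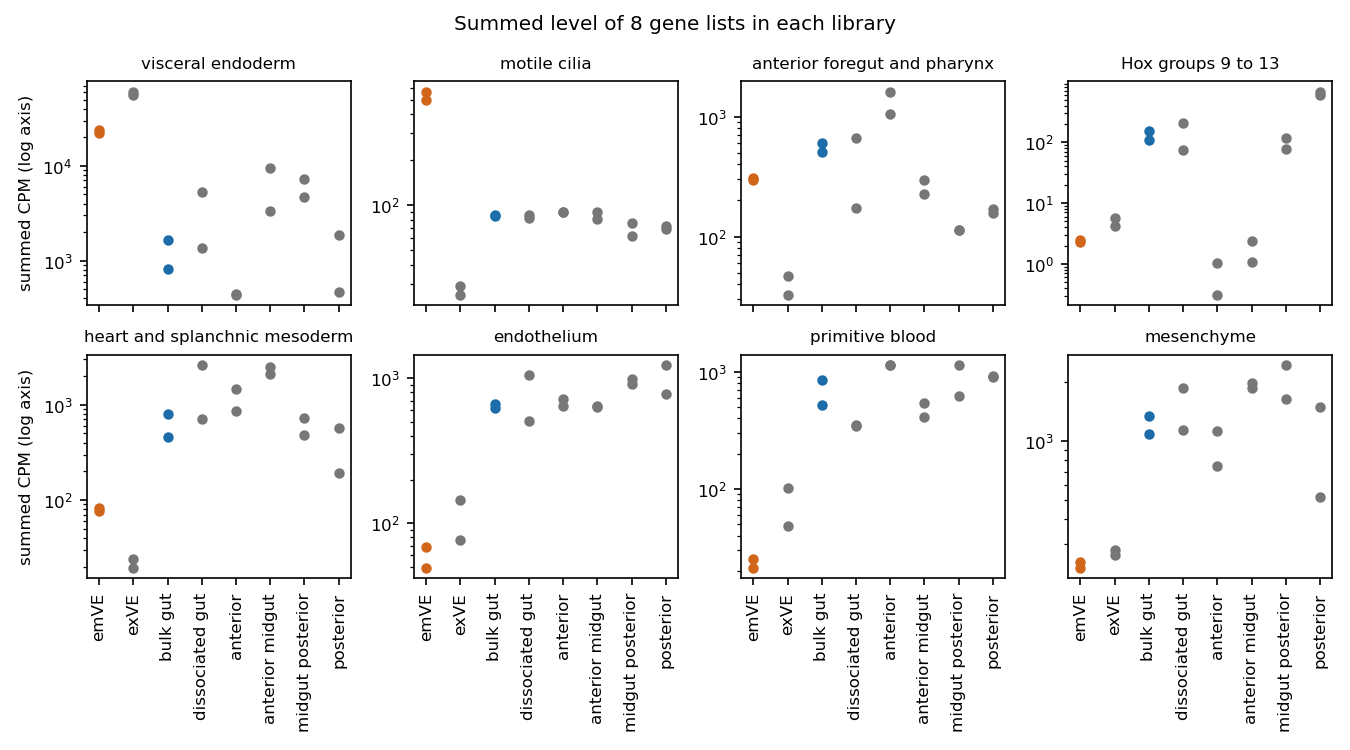
Summed level of 8 gene lists in each of the 16 libraries, in CPM on log axes that differ between panels; orange marks emVE, blue bulk gut tube and grey the other groups, with 1 point a library. The visceral endoderm sum is 55897 and 60555 CPM in exVE and 812 and 1632 CPM in bulk gut tube. It is lowest in the anterior section, at 442 and 436 CPM, while endothelium, blood and mesenchyme are lowest in visceral endoderm.

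Somite genes were mixed, with 3 of 13 higher and 4 lower. Meox1 rose from 10.4 and 9.32 CPM to 61.6 and 36.3 CPM, while the Notch ligand genes Dll1 and Dll3 fell. Dll3 fell from 20.2 and 18.7 CPM to 1.92 and 3.26 CPM. Of 12 neural tube genes 3 were higher and 1 lower, and Zic2, the lower one, stood at 1.83 and 1.94 CPM against 46.9 and 33.6 CPM. In the neural crest list 4 of 8 were higher. Sox10, a crest marker, stood at 8.07 and 0.890 CPM in bulk gut tube, replicates that differ widely, against 0.206 and 0.0304 CPM. The crest count was 1 without bulk gut tube replicate 1 or emVE replicate 2 and 2 without emVE replicate 1. Of 8 germ cell genes 6 were higher, among them Prdm14 at 0.862 and 1.49 CPM against 0 and 0.0304 CPM, and each of the 4 fits without 1 library left between 1 and 3. Surface ectoderm genes were higher in 2 of 9 cases, and Trp63 rose by 4.36 on the log2 scale (adjusted p = 0.000356). In the parietal endoderm and trophoblast list 5 of 14 were higher and 6 lower, and Srgn fell from 13.3 and 14.0 CPM to 0.154 and 0.545 CPM. The higher members of that list numbered 1 to 3 in each fit without 1 library, and the lower ones 2 without bulk gut tube replicate 1 and 3 without emVE replicate 2. Without either emVE library 1 somite gene was higher, without emVE replicate 2 no neural tube gene was, and 1 surface ectoderm gene was higher in each of the other 3 fits.

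In the Hedgehog pathway 8 of 14 members were higher and 0 lower. Beside the ligand Shh these included the receptor gene Ptch1, at 339 and 439 CPM against 174 and 190 CPM (adjusted p = 0.00575), and the effector Gli1, at 85.6 and 69.1 CPM against 18.7 and 28.3 CPM (adjusted p = 0.00131). Both genes are transcribed in response to the pathway. Of 22 tested members of the Nodal, BMP and TGF-beta list 7 were higher and 5 lower. The 2 BMP ligand genes differed in direction, with Bmp2 falling from 63.1 and 58.8 CPM to 7.74 and 8.57 CPM (adjusted p = 4.68e-05) and Bmp4 rising as given above. Of 20 Wnt genes 5 were higher and 4 lower, shares near those of all genes tested. The share of higher members was near that of all genes, 21.7%, in the somite, neural tube, surface ectoderm, FGF and liver and pancreas bud lists too. So it was in the cell cycle, imprinted and immediate early lists. The share of lower members was near that of all genes, 16.9%, in the adhesion, heat shock and p53 lists. It was also near it in the midgut and hindgut list and the Nodal, BMP and TGF-beta list. Wnt5b rose from 6.12 and 6.15 CPM to 41.1 and 52.6 CPM, and Axin2, a target of the pathway, fell from 104 and 132 CPM to 39.9 and 56.4 CPM (adjusted p = 0.0167). The higher Hedgehog members numbered 5 without bulk gut tube replicate 2 or emVE replicate 1, and those of the Nodal, BMP and TGF-beta list 4 without emVE replicate 1. In the Wnt list 3 were higher without emVE replicate 2, and 2 were lower without that library or bulk gut tube replicate 1.

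Of 17 FGF genes 3 were higher and 5 lower. The feedback inhibitor Spry4 fell from 36.4 and 36.3 CPM to 10.7 and 12.2 CPM, and Fgf17 rose from 1.13 and 0.670 CPM to 7.78 and 11.1 CPM. In the Notch list 8 of 16 were higher and 2 lower. Dll4, a ligand of endothelium, rose from 0.137 and 0.548 CPM to 20.7 and 19.04 CPM, and the target Hey1 rose by 1.32 on the log2 scale (SE 0.17, adjusted p = 0.000157). Of 15 retinoic acid genes 5 were higher and 1 lower. Rarb, a receptor gene that the ligand induces, rose from 9.97 and 13.1 CPM to 54.6 and 63.0 CPM (adjusted p = 7.88e-05), and Crabp2 rose by 2.56 (SE 0.20, adjusted p = 8.8e-06). Aldh1a2, the main enzyme of retinoic acid synthesis at this age, stood at 106 and 88.4 CPM against 78.4 and 54.8 CPM and did not pass (adjusted p = 0.348). Without emVE replicate 2 the higher Notch genes numbered 5. The higher retinoic acid genes numbered 3 without bulk gut tube replicate 1 or emVE replicate 1, and the call of Cyp26a1, the lower one, was lost in each fit without 1 library.

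Lysosomal and endocytic genes were lower in 19 of 25 cases and higher in 0, with a median log2 change of -1.66. Among the lower ones, Lrp2, Cubn, Amn and Dab2 are also members of the visceral endoderm list and were counted there. Ctsc, a lysosomal protease gene, fell from 370 and 376 CPM to 8.91 and 17.8 CPM (log2 change -4.80, SE 0.51, adjusted p = 5.07e-05). Clcn5, a chloride transporter of endosomes, fell from 430 and 441 CPM to 94.1 and 124 CPM, and Npc1, which exports cholesterol from lysosomes, fell from 179 and 190 CPM to 53.5 and 63.0 CPM. The lipid list was divided. Of 22 members 9 were lower, namely 6 apolipoprotein genes, Mttp, Soat2 and Scarb1, and 8 were higher. All of the lower ones but Scarb1 are also members of the visceral endoderm list and were counted there. Among the higher were Sqle, Fdft1, Insig1, Fasn, Scd2 and Cd36, which act in sterol or fatty acid synthesis, its regulation or uptake. Sqle, an enzyme of sterol synthesis, rose from 42.9 and 40.7 CPM to 82.8 and 81.1 CPM. Without bulk gut tube replicate 1, 4 of the 22 were lower.

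Glycolytic enzymes and glucose transporters differed in direction. Of 18 members 8 were higher and 2 lower, and the 2 that were lower were the glucose transporter genes. Slc2a3 fell from 5003 and 5560 CPM to 958 and 1413 CPM (log2 change -2.16, SE 0.34, adjusted p = 0.000514), and Slc2a1 fell from 1366 and 1519 CPM to 632 and 629 CPM. Pgk1 rose from 182 and 148 CPM to 476 and 410 CPM (log2 change 1.42, SE 0.16, adjusted p = 7.36e-05), and Pdk1, which restrains pyruvate entry into mitochondria, rose by 0.97 (SE 0.13, adjusted p = 0.000224). The number of higher members was 4 without bulk gut tube replicate 1 and 4 without emVE replicate 2. Of 10 genes of the mitochondrial genome tested 7 were lower, and these were the 7 that averaged above 1000 CPM in emVE. The other 3 stood at or below about 1 CPM in all 4 libraries. mt-Nd6 fell from 3317 and 2986 CPM to 672 and 835 CPM (log2 change -2.06, SE 0.11, adjusted p = 4.63e-06).

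The basement membrane and matrix list held 6 higher and 4 lower of 17. Its fibrillar members rose, while Nid2, entactin 2, fell from 340 and 366 CPM to 104 and 134 CPM, and Fn1, fibronectin, did not pass. Of 18 adhesion and polarity genes 2 were higher and 4 lower. Imprinted genes were divided into 5 higher and 5 lower of 19. Mest rose from 89.0 and 87.1 CPM to 786 and 938 CPM, Plagl1 rose from 7.64 and 8.95 CPM to 92.6 and 112 CPM, and Ndn rose by 3.01 on the log2 scale (SE 0.23, adjusted p = 8.48e-06). Meg3, a maternally expressed RNA, fell from 687 and 724 CPM to 264 and 233 CPM. Both Lin28 genes, which restrain the let-7 microRNAs, moved in opposite directions. Lin28a fell from 1224 and 1357 CPM to 683 and 746 CPM, and Lin28b rose from 60.9 and 45.1 CPM to 110 and 130 CPM (adjusted p = 0.00804). In the 4 fits without 1 library the lower imprinted genes numbered 2 or 3, the lower matrix genes 1 to 4 and the lower adhesion genes 2 in those without bulk gut tube replicate 1 or emVE replicate 2. The higher imprinted genes numbered 3 in all of these fits but the one without bulk gut tube replicate 2.

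Of 20 cell cycle genes 5 were higher and 1 lower. Cdk1 rose by 0.67 (SE 0.08, adjusted p = 0.000127), and Mki67, the lower one, stood at 412 CPM in both bulk gut tube libraries and 547 and 539 CPM in emVE. Among 22 immediate early genes, which respond to handling, 4 were higher and 2 lower. Fos stood at 2.66 CPM in bulk gut tube replicate 1 and 55.9 CPM in replicate 2, with emVE between them at 26.8 and 30.4 CPM (adjusted p = 0.98). In dissociated gut tube it stood at 276 and 388 CPM. Heat shock genes were higher in 4 of 13 cases and lower in 2, and p53 response genes in 5 of 14 and 2. Plk2, a p53 target, rose from 6.03 and 5.92 CPM to 54.7 and 62.0 CPM. Without bulk gut tube replicate 1 no heat shock gene and 2 cell cycle genes were higher. Without emVE replicate 1 the higher genes numbered 2 in the cell cycle list, 2 in the immediate early list, 1 in the heat shock list and 3 in the p53 list. Without emVE replicate 2 there were 3 higher cell cycle and 1 higher heat shock genes, and without bulk gut tube replicate 2 there were 5 lower immediate early genes. The call of Mki67 was lost in each of the 4.

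The 8 section libraries show where along the gut tube the genes that were higher in bulk gut tube had their highest level. Of these 3763 genes, 27.9% were highest in the anterior section, 23.7% in the anterior midgut, 22.2% in the midgut to posterior section and 26.2% in the posterior section. Over all genes tested the shares were 28.6%, 21.1%, 22.7% and 27.6%. Both libraries of the highest section lay above the other 6 in 38.5% of the genes that were higher, 27.9% of those that were lower and 31.6% of all genes tested. A gene with no count in any section library, such as Gcg, was placed under the anterior section, so the anterior shares include such genes. These shares describe the libraries and were not tested.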

How the data were processed

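RNA-seq counts per gene symbol were deposited by the authors for each library, as raw counts with no normalization. STAR did the alignment, per the submitters' processing notes. No source used here gives its version, the build, the annotation, the counting program or the strand setting, so reads of a gene and an antisense or near-identical partner may not be told apart. Each file had 26795 entries, and 32 symbols listed more than once were summed.

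Totals of the 4 libraries compared were 59165411 and 63843121 counts for bulk gut tube and 57061536 and 65231076 for emVE, and floors at 0 counts cover counting error only. All 16 libraries entered 1 edgeR 4.0.16 quasi-likelihood fit (R 4.3.3, limma 3.58.1) with a coefficient per group, TMM scaling and filterByExpr (minimum count 10, minimum total 15), with 8 residual degrees of freedom. Every p is two-sided and Benjamini-Hochberg adjusted over 17313 genes, and CPM, counts per 1000000, uses the TMM-scaled totals. A gene at 0 in a group was set against 3 counts over that group. On simulated counts the fit recovered 42% of genes changed 2-fold, 90% of those changed 4-fold, and called 0.0298% of unchanged genes. The simulation changed only 50 genes above 1 CPM at each fold size, whereas 38.6% of genes tested passed here. Its rates need not hold for this comparison. Alternatives included DESeq2 1.42.0.

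Both groups share replicate numbers that the labels do not explain, and the correlation of same-numbered deviations was -0.0387, a single value that cannot show pairing. Named genes are the 10 largest non-overlapping changes each way with at least 8 CPM, up to 4 members of each of 41 lists by adjusted p, all Hox genes and a set of key genes; other members, the 10 whole gut tube genes and the pancreas list were picked after their values were seen. Members and lists were chosen with earlier results of these data known. Some list members are not reported here.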

Additional observations from a re-analysis of the deposited data

Results flagged for a closer look

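Signal was found in libraries that the comparison did not use. Ins1 averaged 47.6 CPM in the dissociated gut tube libraries, Ins2 121 CPM and Gcg 44.2 CPM, at levels near those of bulk gut tube and above emVE, where Ins1 and Gcg had no count. The section libraries of the same stage had no count of Ins1 or Gcg. Where this RNA came from was not tested.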

How the results depend on the processing

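The count of 6688 genes became 6626 with RLE size factors, 6300 without a filter on low counts, 7417 with DESeq2, 7667 with both groups fitted alone and 7966 with dissociated in place of bulk gut tube. With the replicate number as a block it became 6390, and the block removed the calls of Hhex, Myl7 and Tfap2c among 192 named genes that passed. At an adjusted p under 0.01 there were 4154 genes, 2297 higher and 1857 lower. With 1 library left out the count ran from 4242 to 4998, the higher genes from 2405 to 2953 and the lower genes from 1798 to 2123, lowest without bulk gut tube replicate 1 for the total and the lower genes and without emVE replicate 1 for the higher genes. Such a fit takes the spread of the lone library from the remaining groups. Of 192 named calls 154 held in all 4 of these fits. The share of calls that were higher was 56.3%, and 50.2% with both groups fitted alone and the block.

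Fos had a log2 change of -3.42 without bulk gut tube replicate 2 (adjusted p = 0.00228) and 0.97 without bulk gut tube replicate 1, against 0.035 with both. With dissociated gut tube Hhex had 0.15 and Prdm1 -0.17. An alternative chosen after seeing the data, the mean of the 4 sections on the log2 scale, called 8866 genes, 4508 higher and 4358 lower. It gave Cdx2 -1.33, Nkx2-1 -1.32, Dppa3 -1.18, Prdm1 -0.18 and Klf6 0.062, each opposite in sign to bulk gut tube. A mean of logs is low for a gene that is confined to 1 section, but no cause of any of these reversals was tested. Without the 10 whole gut tube genes, also chosen after seeing the data, 6678 genes passed.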
